A study of Caenorhabditis elegans with 9 samples.

Results

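The genes cup-4 and unc-122, whose transcripts mark coelomocytes in Caenorhabditis elegans, were followed across sorted VA motor neuron libraries from unc-4 mutants and from wild type worms. They were chosen by symbol, and selected on their measured values, as 2 of the 214 genes that the authors list with raised levels in unc-4 VA neurons. Coelomocytes are scavenger cells of the body cavity. They take up fluid and macromolecules by endocytosis and break them down in lysosomes. Both genes were higher in the unc-4 libraries, at mean ratios of 11.2 for cup-4 and 12.1 for unc-122, and their levels moved together from library to library.

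Larvae of the second stage (L2) gave 3 libraries of unc-4 VA neurons (libraries 64, 65 and 66, replicates 1, 2 and 3), 3 of wild type VA neurons (libraries 33, 34 and 67, replicates 1, 2 and 3) and 3 of whole worms of strain N2 (libraries 26, 27 and 28). VA neurons are acetylcholine-releasing motor neurons in the ventral cord, and the homeodomain protein UNC-4 controls transcription in them. The label for strain reads pUnc-4::mCherry; pUnc-4C::GFP for mutant and wild type VA libraries alike, so both groups carry the red and green reporters, and no unc-4 allele is named. Cells that were red but not green were sorted from dissociated larvae, and per the labels' protocols this gate takes AVF neurons as well as VA neurons. No label says whether the libraries of a group came from separate cultures, so the spread between them may be technical. Wild type library 67 is numbered next to the unc-4 libraries, apart from wild type libraries 33 and 34, and what the numbers stand for is not given in the sources used here.

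Values are TPM, a measure of transcript abundance in which reads are scaled by transcript length and by the total of the library, so levels of different genes can be compared. TPM keeps no sequencing depth, and the depth behind each value is unknown. In wild type VA libraries unc-4 lay between 936 and 1311 TPM, against 11.3 to 14.6 TPM in whole worms, but cells were sorted on reporters of its promoter. The transcript of unc-4 is not among the genes listed for the mutant, so the genotype labels could not be checked by it.

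CUP-4 belongs to the family of ligand-gated ion channel subunits related to nicotinic acetylcholine receptors, and coelomocytes need it for efficient fluid uptake. UNC-122 is a membrane protein with collagen-like repeats and an olfactomedin domain, whose loss impairs locomotion. Expression of unc-122 has been described in muscle as well as in coelomocytes, and its promoter is widely used to drive reporters in coelomocytes. The genes lie on different chromosomes of WBcel235, cup-4 (WBGene00000845) at III, 7866489 to 7868737, and unc-122 (WBGene00006845) at I, 14872112 to 14875436. Both are protein coding, both lie on the plus strand, and no other annotated gene overlaps either of them.

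Transcripts of cup-4 read 1409, 139.9 and 567 TPM in unc-4 libraries 64, 65 and 66, against 29.9, 43.3 and 115.2 TPM in wild type libraries 33, 34 and 67. Library 64 stood highest and library 65 lowest among the mutants, and library 67 was the highest of the wild type. The groups did not overlap, but only by a small margin, as library 65 was 1.21 times library 67. Means were 705 ± 646 TPM in unc-4 and 62.8 ± 45.9 TPM in wild type VA neurons (SD, n = 3 each). The authors' deposited table gives cup-4 a fold of 8.56 with an FDR p-value of 0.0029, below the ratio of means. How the authors computed the fold is not given in the sources used here.

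For unc-122 the same order of libraries was seen at a lower level, with 422, 33.3 and 119 TPM in unc-4 libraries 64, 65 and 66, against 8.71, 12.3 and 26.4 TPM in wild type libraries 33, 34 and 67. Again library 64 was far above the other mutants and library 67 above the other wild type libraries. The lowest unc-4 value was 1.26 times the highest wild type value. Means were 192 ± 205 TPM in unc-4 and 15.8 ± 9.34 TPM in wild type VA neurons (SD, n = 3 each), and the authors' deposited table gives unc-122 a fold of 9.15 with an FDR p-value of 0.0016. For both genes the SD of the unc-4 libraries was about as large as their mean.

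**Figure D1:**
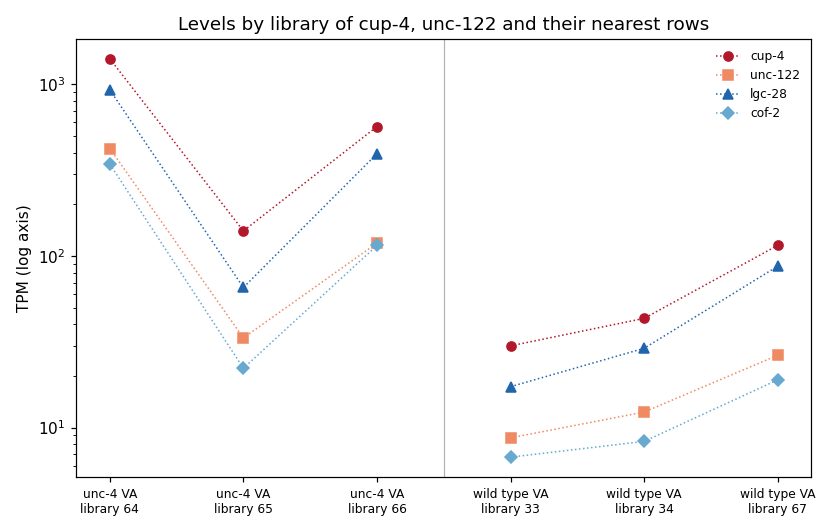
TPM on a log axis (vertical) in each of the 3 unc-4 and 3 wild type VA libraries (horizontal) for cup-4, unc-122 and the genes lgc-28 and cof-2, with 1 point per library; dotted lines only join the points of a gene. All 4 genes are highest in library 64, where cup-4 reads 1409 TPM, and lowest in library 33, where it reads 29.9 TPM.

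These values chose the genes, so no test is given. Of the 214 listed genes, 100% passed the authors' FDR threshold of 0.05 with a fold above 1, since only such genes are in the table. The lowest unc-4 library exceeded the highest wild type library in 150 of them (70.1%), as for cup-4 and unc-122. By mean unc-4 level cup-4 ranked 14th and unc-122 49th of 214, and by the authors' deposited fold they ranked 149th and 139th, so both were high in level and below the median fold of 13.3. In these bulk libraries more cells of a type and more RNA per cell cannot be told apart.

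Single libraries weighed on the ratios of means. Without library 64 the ratio was 5.63 for cup-4 and 4.81 for unc-122, and without library 67 it was 19.3 for cup-4 and 18.2 for unc-122. With library 65 left out, cup-4 had a ratio of 15.7 and unc-122 one of 17.1. Library 65 alone was 2.23 times the wild type mean for cup-4 and 2.11 times for unc-122.

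The level of cup-4 relative to unc-122 changed little. That ratio of TPM values was 3.33, 4.20 and 4.78 in unc-4 libraries 64, 65 and 66, against 3.44, 3.51 and 4.37 in wild type libraries 33, 34 and 67. It averaged 4.10 ± 0.725 in unc-4 and 3.77 ± 0.517 in wild type libraries (SD, n = 3 each), so the ranges of the groups overlapped. While cup-4 itself spanned 47.1-fold and unc-122 48.5-fold over the 6 libraries, their ratio spanned 1.43-fold. For the listed genes with a value above 0 in every library, the ratio to cup-4 spanned a median of 10.1-fold, and unc-122 had the narrowest span of all of them. Seen from unc-122, cup-4 had the narrowest span too.

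Together cup-4 and unc-122 took up 0.183%, 0.0173% and 0.0686% of all TPM in unc-4 libraries 64, 65 and 66, against 0.00386%, 0.00556% and 0.0142% in wild type libraries 33, 34 and 67. All 214 listed genes made up 6.37%, 1.77% and 6.28% of TPM in the same unc-4 libraries, against 0.430%, 0.270% and 0.466% in the wild type libraries. The pair therefore formed 2.87%, 0.977% and 1.09% of the listed TPM in the unc-4 libraries, against 0.898%, 2.06% and 3.04% in the wild type libraries, and on that scale the groups overlapped. The ratio of the group means was then 0.818 for cup-4 and 0.849 for unc-122. All listed genes are higher in unc-4, so this scale sets the pair against other genes chosen in the same way and not against the whole library.

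The order seen in cup-4 and unc-122 over the mutants, library 64 above 66 above 65, was shared by 91 other listed genes, which makes 93 of 214 (43.5%). A further 85 genes (39.7%) had library 66 above 64 above 65. Library 65 was thus the lowest mutant library in 178 genes (83.2%), and the pair shared its low place there with most of the table. Library 64 above library 66 was seen in 100 genes (46.7%). The other 4 possible orders held 19, 10, 4 and 3 genes.

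**Figure D2:**
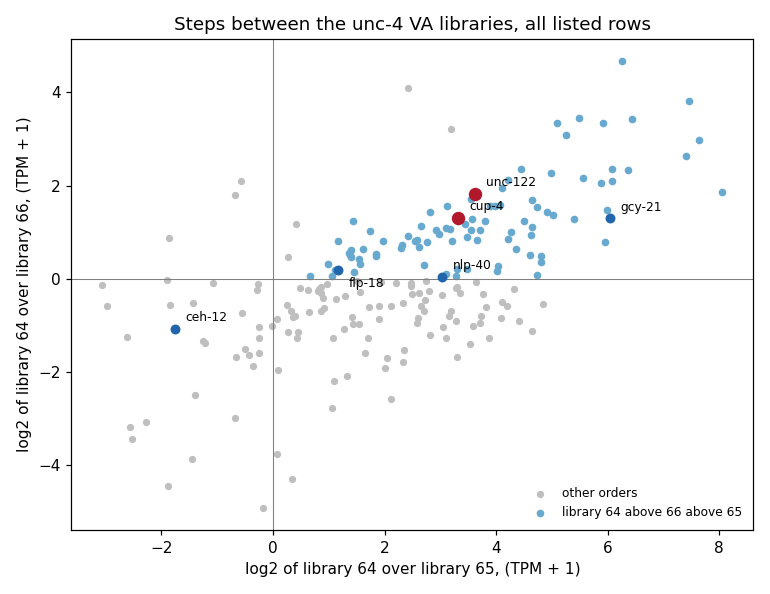
Each point is 1 of the 214 listed genes; the horizontal axis gives the log2 ratio of library 64 to library 65 and the vertical axis that of library 64 to library 66, both on TPM + 1. The 93 genes with the order of cup-4 and unc-122 lie in the upper right, among them flp-18, nlp-40 and gcy-21, while ceh-12 lies in the lower left.

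The size of the steps placed the pair as follows. Library 64 was 10.1 times library 65 for cup-4 and 12.7 times for unc-122, where the median of all listed genes was 6.63 times. Library 64 was 2.48 times library 66 for cup-4 and 3.56 times for unc-122, against a median of 0.939. When the 3 mutant libraries were scaled by the median ratio of the listed genes, 41 genes had the order, and cup-4 and unc-122 were not among them, since library 65 then stood above library 66 for both. The first place of library 64 did not depend on this scaling, while the last place of library 65 did.

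Close to the boundary of the order, nlp-40 had library 64 at 1.03 times library 66 and C17H11.1 at 1.04 times, just inside it. Just outside lay ncs-5 and F26E4.3, at 0.969 and 0.965 times. When each step had to be at least 1.5-fold, 66 genes kept the order.

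In wild type the pair also had a common order, library 67 above 34 above 33. The mutant order does not use these libraries. The pair was chosen with its wild type values known, however, so this wild type order is no independent result. That order was seen in 27 of 214 listed genes (12.6%), where library 33 above 67 above 34 was seen in 60 genes and library 67 above 33 above 34 in 54. The 54 include genes at 0 in both library 33 and library 34, such as scl-14. Library 67 was 3.85 times library 33 for cup-4 and 3.03 times for unc-122, where the median listed gene had 0.749 times. Both orders together were shared by 19 genes, the pair included. These are 20.4% of the 93 genes with the mutant order and 70.4% of the 27 genes with the wild type order. With each step at least 1.5-fold only 3 genes had both orders. Leaving out 1 library and keeping the order of the rest gave between 20 and 63 genes. The counts were 63 without library 33, 42 without library 34 and 32 without library 67.

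Likeness to the pair was measured over the 6 libraries as the root mean square (RMS) difference between profiles of log2(TPM + 1). Each profile was centred on its own mean, which takes out the overall level of a gene. The added 1 TPM still shrinks the steps of genes at low TPM, such as aqp-6 in wild type. By this measure unc-122 was the gene nearest to cup-4, at 0.22 on the log2 scale, where the median of the other listed genes was 1.06. From unc-122 the nearest was cof-2, at 0.17, and cup-4 came second at 0.22. The 10 nearest genes of each were nearly the same, with 8 genes besides the pair in both lists and 10 in either. All 10 had the mutant order of the pair, all 10 were highest in library 67 among wild type libraries, and 6 of them had the full wild type order. Library 67 was the highest wild type library in 81 of the 214 listed genes (37.9%). The 10 genes were picked for likeness over these same 6 libraries. Their shared orders and the high place of library 67 therefore follow largely from that choice and are no separate result. Without library 67, 6 of the 10 genes nearest to cup-4 and 7 of those nearest to unc-122 remained. With 0.1 TPM added in place of 1 TPM, 8 of the 10 nearest to cup-4 and 9 of those nearest to unc-122 remained.

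**Figure D3:**
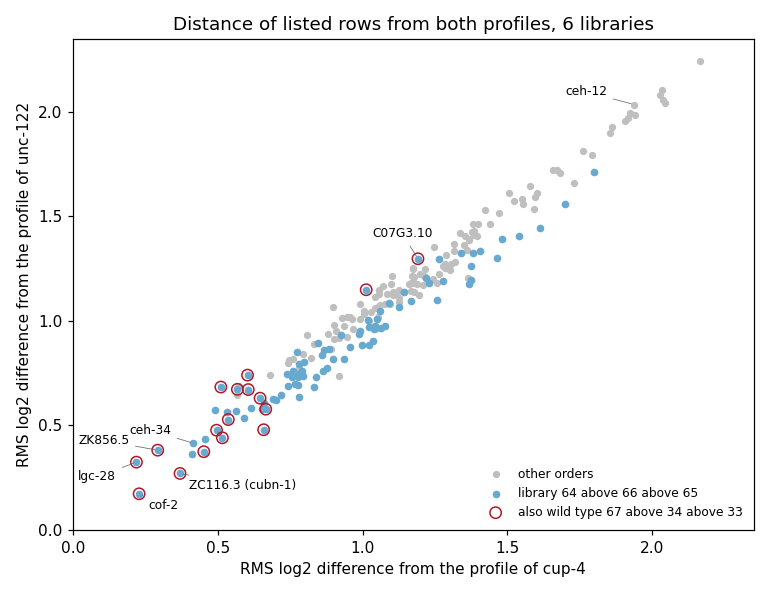
RMS log2 difference of each listed gene from the profile of cup-4 (horizontal) and of unc-122 (vertical) over 6 libraries, for all listed genes but the pair. The genes cof-2, lgc-28, ZK856.5 and ZC116.3 lie nearest to the origin, the 17 circled genes share both orders of libraries, and ceh-12 lies at the far end.

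Among the 10 genes, lgc-28 and cof-2 belong to the families of the pair. LGC-28 is, like CUP-4, a ligand-gated ion channel subunit of the Cys-loop family, and its gene lies at chromosome II, 2625092 to 2627109. Its transcripts read 928, 65.5 and 394 TPM in unc-4 libraries 64, 65 and 66, against 17.3, 28.95 and 87.2 TPM in wild type libraries 33, 34 and 67. Library 65 lay below library 67, so the groups overlapped, and the ratio of lgc-28 to cup-4 stayed between 0.468 and 0.756 in all 6 libraries.

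The gene cof-2 (chromosome I, 6250475 to 6252876) encodes an olfactomedin-domain protein, as unc-122 does. It read 343, 22.1 and 115.1 TPM in unc-4 libraries 64, 65 and 66, against 6.72, 8.30 and 18.97 TPM in wild type libraries 33, 34 and 67. The groups did not overlap, and library 65 was 1.17 times library 67. Over the 6 libraries the level of unc-122 relative to cof-2 stayed between 1.033 and 1.503. Cys-loop receptor genes were matched by lgc- and acr- symbols only, which leaves out cup-4. Of these, 4 of 77 (5.19%) were listed for the mutant, where 213 of 19985 annotated protein-coding genes (1.07%) were, a difference not tested. Homeobox genes (6 of 76) and peptide precursor genes (14 of 141) were listed too, so such a share was not particular to Cys-loop genes. Of the 4 listed Cys-loop genes, lgc-28 and lgc-23 had both orders of the pair, which 8.88% of all listed genes had. The subunit gene lgc-23 read 152, 8.49 and 135 TPM in unc-4 libraries 64, 65 and 66, against 1.69, 4.98 and 18.6 TPM in wild type libraries 33, 34 and 67.

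Of the other nearest genes, ZC116.3, now cubn-1, encodes a homologue of cubilin, an endocytic receptor of mammals, and read 54.4, 2.29 and 17.6 TPM in unc-4 libraries 64, 65 and 66, against 0.503, 1.21 and 3.31 TPM in wild type libraries 33, 34 and 67. The lysosomal alpha-mannosidase gene aman-1 read 990.4, 62.0 and 337 TPM in the unc-4 libraries, against 18.6, 29.8 and 32.8 TPM in the wild type libraries. C34C6.7 is now cup-16, a member of the gene class named for defects of coelomocyte uptake. It read 83.1, 11.4 and 47.7 TPM in unc-4 libraries 64, 65 and 66, against 1.299, 0.921 and 3.15 TPM in wild type libraries 33, 34 and 67. The groups overlapped for ZC116.3 and did not for aman-1 and C34C6.7, where library 65 was 1.89 and 3.62 times the highest wild type library. Of 30 genes on a list of endocytosis and lysosome genes, 1 was listed for the mutant, C34C6.7, where 1.07% of annotated protein-coding genes were. ZC116.3 and aman-1 are not on that list. The acid ceramidase homologue gene asah-1, also not on that list and named after its values were seen, read 128, 174 and 400.2 TPM in unc-4 libraries 64, 65 and 66, with library 64 the lowest and not the highest.

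The homeobox gene ceh-34, whose product acts in the fate of coelomocytes and other nonstriated mesoderm, read 203, 15.1 and 114 TPM in unc-4 libraries 64, 65 and 66, against 7.98, 6.46 and 18.3 TPM in wild type libraries 33, 34 and 67. Library 65 was 0.825 times library 67, so the groups overlapped. It was the only 1 of 7 genes on a list of coelomocyte fate factors to be listed, and fate factors such as let-381, eya-1 and sem-2 were not. For comparison, the share among annotated protein-coding genes was 1.07%, a difference not tested. The gene ceh-34 is also known from neurons of the pharynx, so it does not mark coelomocytes alone. Which cells its level came from was not tested.

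The other 4 nearest genes were the aquaporin gene aqp-6 and brp-1, ZK856.5 and Y75B7AL.2, for which no role is given here. Mean unc-4 and wild type levels were 13.4 ± 10.3 and 0.646 ± 0.545 TPM for aqp-6, and 342 ± 274 and 35.9 ± 11.4 TPM for brp-1 (SD, n = 3 each). For ZK856.5 they were 78.3 ± 70.8 and 8.28 ± 8.08 TPM, and for Y75B7AL.2 22.1 ± 19.4 and 1.73 ± 0.707 TPM (SD, n = 3 each). Among the 10 nearest genes ratios of means ranged from 9.46 for ZK856.5 to 26.5 for C34C6.7.

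**Figure D4:**
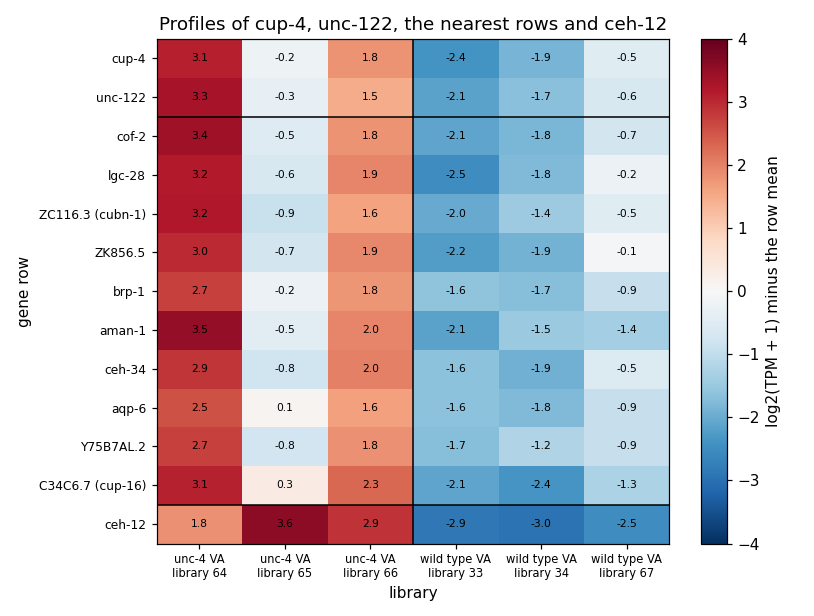
Profiles of log2(TPM + 1) minus the mean of each gene (colour and printed value) in the 3 unc-4 and 3 wild type VA libraries for cup-4 and unc-122 (top), their 10 nearest genes (middle) and ceh-12 (bottom). The pair and the nearest genes peak in library 64, while ceh-12 peaks in library 65.

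The nearest genes differed when each group of libraries was taken alone. Over the 3 unc-4 libraries, 1 of the 10 genes nearest to cup-4 and 3 of the 10 nearest to unc-122 remained among the nearest. There unc-122 ranked 12th from cup-4 and cup-4 4th from unc-122, at 0.21 on the log2 scale. Over the 3 wild type libraries, 5 of the 10 genes nearest to cup-4 and 4 of the 10 nearest to unc-122 remained, with unc-122 7th from cup-4 and cup-4 6th from unc-122, at 0.18. With any single library left out, cof-2, lgc-28 and the partner of the pair stayed among the 10 nearest to either gene. From cup-4, 4 of its 10 genes stayed under every such omission, with ZK856.5 the fourth, and from unc-122, 6 of 10 stayed, with ZC116.3, aman-1 and brp-1 besides. Without library 65, 6 of the 10 genes nearest to cup-4 remained.

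Genes with the mutant order were not limited to such functions. The 5 most abundant besides the pair were C15C7.4, Y23B4A.2 (now capa-1, a neuropeptide precursor gene), ccg-1, and the peptide precursor genes nlp-40 and flp-18. C15C7.4 read 2891, 33.9 and 570.2 TPM in unc-4 libraries 64, 65 and 66, against 25.1, 7.93 and 33.8 TPM in wild type libraries 33, 34 and 67, and Y23B4A.2 had library 64 at 43.0 times library 65. The gene ccg-1 shared both orders of the pair, with 1929, 102 and 440.0 TPM in the unc-4 libraries, against 70.1, 98.2 and 124 TPM in the wild type libraries. For flp-18 library 64 was 2.25 times library 65, the smallest such step of these 5.

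Where the mean over the mutants was at least 5 TPM, the largest steps from library 64 to library 65 among genes with the order were those of R07B1.8, gcy-21, lron-4, dct-15 and F58E10.7. The receptor-type guanylyl cyclase gene gcy-21 read 69.7, 0.0766 and 27.8 TPM in unc-4 libraries 64, 65 and 66. R07B1.8 read 200.3, 0.186 and 31.3 TPM, lron-4 266, 0.345 and 32.9 TPM, dct-15 28.6, 0.0565 and 21.9 TPM, and F58E10.7 899, 2.38 and 248 TPM. The cyclase gene gcy-15 and the paired-box gene pax-2 were listed at 0 in library 65. These genes share the order of the pair but lay far lower in library 65, where cup-4 read 139.9 TPM.

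Markers of other cells, listed for the mutant, also had the order in some cases. Of 11 markers of other mesoderm only lim-7 was listed, a LIM homeobox gene of the gonadal sheath, with 81.7, 9.86 and 39.2 TPM in unc-4 libraries 64, 65 and 66, against 6.88, 3.43 and 3.17 TPM in wild type libraries 33, 34 and 67. Of 13 matched glia markers only the Prospero-type gene pros-1 was listed, with 42.4, 6.24 and 23.4 TPM, against 2.42, 1.74 and 2.38 TPM. Both had the mutant order and neither had the wild type order. None of 28 body wall muscle markers, 20 hypodermis markers, 20 ciliated neuron markers or 15 germline markers was listed for the mutant. The background share was 1.07% (213 of 19985 protein-coding genes). At that share a list this short will mostly hold no listed gene, so these empty lists say little about those cells. The single listed genes for other mesoderm and glia were not tested against that share. The ciliated neuron list does not hold gcy-21, gcy-15 and gcy-11, which were listed with the mutant order, or daf-7, listed without it. Nor does it hold lite-1, gpa-2 and ocr-1, listed with the mutant order, or ocr-3 and sre-23, listed without it. Those 20 markers therefore do not stand for all sensory neuron genes. The intestine marker lys-1, the pharynx marker phat-5, the GABA neuron marker unc-30 and the cholinergic gene ace-1 were the listed members of their lists, and none of them had the mutant order. Only genes called higher are listed, so a missing marker gives no level, and the part of other cell types in these values was not tested.

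The list of homeobox genes used here leaves out lim-7, unc-30 and the Prospero-type gene pros-1. On it, 6 of 76 genes were listed for the mutant, where 1.07% of annotated protein-coding genes were. Of these 6, 3 had the mutant order, ceh-34, ceh-31 and unc-86, where 43.5% of all listed genes did. Of 141 peptide precursor genes matched by flp-, nlp- or ins- symbols, 14 were listed. Of these 14, 4 had the mutant order, flp-10, flp-18, nlp-6 and nlp-40, where 43.5% of all listed genes did. The precursor gene Y23B4A.2 (now capa-1), which had the order, carries no such symbol and was not counted. The BarH-type gene ceh-31 read 230.5, 7.71 and 218 TPM in unc-4 libraries 64, 65 and 66, against 10.97, 2.10 and 2.93 TPM in wild type libraries 33, 34 and 67, and the POU gene unc-86 had 80.7, 15.7 and 50.7 TPM, against 11.9, 3.99 and 1.51 TPM. In both, library 33 and not library 67 was the highest of the wild type. The peptide gene nlp-6, with 230.1, 5.04 and 26.3 TPM in the unc-4 libraries, against 12.1, 7.22 and 2.51 TPM in the wild type libraries, was lowest in library 67. Library 67 was the highest wild type library for ceh-34, as for the pair, and for flp-18, which read 60.1 TPM there.

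Neither cup-4 nor unc-122 was among the 2349 genes listed for wild type VA neurons over whole worms, and no whole-worm level of either is at hand. Of the 3 coelomocyte markers used here, lgc-26 was listed in neither table. Of the 13 genes in both tables, lgc-28 and wrk-1, an immunoglobulin-domain gene of axon guidance, had the mutant order. Their wild type VA means were 44.5 ± 37.4 TPM for lgc-28 and 37.8 ± 14.1 TPM for wrk-1, against 17.1 ± 8.68 and 15.97 ± 1.07 TPM in whole worms (SD, n = 3 each). For lgc-28 the wild type libraries 33, 34 and 67 read 17.3, 28.95 and 87.2 TPM, against 15.7, 26.4 and 9.20 TPM in whole-worm libraries 26, 27 and 28. Only library 67 stood clearly apart, and library 33 lay below library 27. The authors' deposited table for that comparison gives lgc-28 a fold of 3.65 with an FDR p-value of 0.019.

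The homeobox gene ceh-12, which acts in VB motor neurons, had the opposite order to the pair, with 40.2, 139 and 85.5 TPM in unc-4 libraries 64, 65 and 66. Of 11 genes on a list of VA and VB motor neuron genes, ceh-12 alone was listed for the mutant, where 1.07% of annotated protein-coding genes were. A single gene does not stand for that list. Library 65, the lowest mutant library for cup-4 and unc-122, was the highest for ceh-12. This opposite order was seen in 10 of 214 listed genes (4.67%).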

How the data were processed

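The sorted groups and whole worms were each given as 3 libraries. The authors deposited TPM values per library in 2 tables of selected genes, with a linear fold change (ratio) and an FDR p-value for each gene, per the file headers. Reads had been processed on WBcel235, per the submitters' processing notes; the aligner, the counting and the test are not given in the sources used here. For the mutant, 2 lines of the table that name no gene were left out. TPM keeps no depth, so no counting interval is given.

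Group means, SDs, ratios of means, orders of libraries and RMS differences of log2(TPM + 1) were computed with Python 3.11.15, pandas 2.3.3 and numpy 2.4.6, without a filter on low values, and the order count and distance were checked on simulated data. Of 214 genes, 213 matched a current symbol and 214 the Ensembl release 115 annotation. Symbols are those of the table.

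The genes and marker lists were chosen with earlier results of these data known, and no test was run on the contrast that selected them. Named are the 10 genes nearest to each of the pair, the 5 most abundant and the 5 with the largest step from library 64 to 65 in the same order (those at 0 in library 65 were added after their values were seen), genes beside the boundary, genes in both tables, and listed members of marker lists. Genes of opposite order were also named after their values were seen. Alternatives were pseudocounts, medians, 2 other scalings, a minimum of 5 TPM, steps of 1.5-fold, omitted libraries and a replicate block.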

Additional observations from a re-analysis of the deposited data

How the results depend on the processing

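Of 58 alternatives 41 left a value within the spread between libraries or a count within 1.5 times. The log2 ratio of means, 3.49 for cup-4 and 3.60 for unc-122, changed sign where TPM was scaled to the listed genes: it was -0.29 and -0.24 as a share of listed TPM, and -0.25 and -0.21 with median-ratio size factors. Both scalings are built from genes chosen as higher in unc-4. With 1 library left out it lay between 2.49 and 4.27 for cup-4 and between 2.27 and 4.19 for unc-122.

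The count of genes with library 64 above 66 above 65 was 93, and 41 with median-ratio size factors, and between 100 and 197 with 1 mutant library left out, where only 1 step is required. Both orders together held 19 genes, 3 with steps of at least 1.5-fold, and 20 to 63 with 1 library left out (settings added after the data were seen). Of the 10 nearest genes, 1 (cup-4) and 3 (unc-122) remained over the 3 unc-4 libraries alone, 5 (cup-4) and 4 (unc-122) over the 3 wild type libraries alone (added after the data were seen), and 6 to 9 (cup-4) or 7 to 10 (unc-122) with 1 library left out; the cause was not tested.

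With a replicate block the log2 ratio was 3.18 for cup-4 and 3.07 for unc-122. Deviations of same-numbered libraries correlated at 0.019, 0.18 and 0.056 across listed genes. Libraries of different number correlated between -0.13 and 0.095. These values do not decide whether the numbers mark pairs, and the numbers are not taken as pairs. Depth is unknown, so low values such as those of aqp-6 and ZC116.3 carry an unknown counting error.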

Other observations

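The 10 genes with library 65 above 66 above 64 included, besides ceh-12, the bHLH gene hlh-32, the cholecystokinin-like receptor gene ckr-1, vab-23, tra-2, F43G6.4, Y66C5A.1, cht-3, nlp-38 (now mihp-1) and Y73B6BL.35 (now nlp-71). The transcripts of hlh-32 read 18.8, 155 and 28.5 TPM in unc-4 libraries 64, 65 and 66, against 3.97, 1.79 and 4.87 TPM in wild type libraries 33, 34 and 67. For vab-23 the values were 43.0, 118 and 62.1 TPM in the unc-4 libraries, against 2.999, 6.08 and 4.20 TPM in the wild type libraries. The groups did not overlap in 9 of the 10, and the exception was cht-3, listed at 0 in library 64.

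C12D5.5, C12D5.4 and C12D5.3, neighbours on the plus strand of chromosome V (7668240 to 7676965) and chosen after their values were seen, all had the mutant order of cup-4 and unc-122. They read 552, 229 and 444 TPM in library 64 and 2.13, 5.75 and 43.9 TPM in library 65. C12D5.5 had 38.1 TPM in library 66, further below library 64 than the pair.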
